A study of Mus musculus with 6 samples.

Results

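The 47 genes described here encode signalling and cytoskeleton proteins of leukocytes, the white blood cells. They fall into surface proteins, cytoplasmic tyrosine kinases, adaptors, enzymes of phosphoinositide metabolism with a phosphatase, regulators of small GTPases, and proteins that assemble, bundle or move actin. They were taken by symbol from a list, with no threshold on any measured value, and each has a row among the 30445 genes of the deposited count table. That list, and those of relatives and other genes below, were chosen with earlier results of these data known. Counts set beside the share of all genes are therefore descriptions. RNA was sequenced from 6 libraries of mouse cells labelled wild type: 2 of embryonic fibroblasts (MEF, connective tissue cells grown from the embryo), 2 labelled MCC, for myeloid-like cell complex, and 2 labelled iMac, for induced macrophage. By its title the series concerns fibroblasts turned into macrophages with the transcription factor c-Myc, and the labels give neither the way c-Myc was delivered nor the days of culture. The labels do not say whether the libraries of a group came from separate cultures, so the p-values measure only the spread between these libraries, which may be technical. Levels are TMM-scaled CPM, the counts of a gene per 1e6 counts of the scaled library total, and pairs of values are given for library 1 and then library 2 of a group.

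Leukocyte receptors pass a signal through tyrosine kinases of the Src and Tec families to adaptors, which gather phospholipase C, phosphoinositide 3-kinase and Vav-type exchange factors at the membrane. Exchange factors load Rac, Cdc42 and related GTPases, and these act through WASP and the WAVE complex on Arp2/3, which nucleates branched actin for migration, phagocytosis and adhesion. Many proteins of this route in blood cells have a close relative that does a like task in fibroblasts and other non-blood cells, for example Nckap1l and Nckap1 in the WAVE complex, or Fermt3 and Fermt2 at integrins. Some of those relatives, Fyn among them, are also known in leukocytes.

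The 45 members that could be tested were all higher in MCC and iMac than in MEF, so the letters around the members' annotated start sites are shown first, for the genes whose window held the purine-rich sequence GAGGAAGT. That sequence is of the type bound by PU.1, the ETS factor known from myeloid and B cells. RefSeq windows on build GRCm38.p6, from 250 bases before to 50 bases after a start, were matched for 39 of the 47 members. In each line below the capitals mark GAGGAAGT or, where it lies on the opposite strand, ACTTCCTC, and the run is written 5′ to 3′ on the strand of the gene.
Inpp5d: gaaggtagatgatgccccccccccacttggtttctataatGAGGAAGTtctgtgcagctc
Vav1: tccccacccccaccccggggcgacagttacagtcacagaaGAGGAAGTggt
Cd37: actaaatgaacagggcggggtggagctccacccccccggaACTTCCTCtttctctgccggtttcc
Pik3cg: tgcaacACTTCCTCtgcatc
Apbb1ip: caaagcACTTCCTCctccct
Cd53: agtctcACTTCCTCactctt
Cyth4: gggctgACTTCCTCccacag
Evi2b: tgataaACTTCCTCtgctgc
The first 3 runs lie upstream of the annotated start: Inpp5d at chr1:87620252-87620311 on the plus strand, Vav1 at chr17:57279049-57279099 on the plus strand and Cd37 at chr7:45238840-45238904 on the minus strand. In these 3 genes the capitals began 20, 11 and 25 bases before the start. The Pik3cg run (chr12:32208648-32208667, minus strand) crosses the start, with the capitals from 2 bases before it to base 6 of the transcript. The Apbb1ip run (chr2:22774326-22774345, plus strand) begins 1 base before the start, with the capitals from base 6 of the transcript. The other 3 runs lie after the start: Cd53 at chr3:106790130-106790149 (minus), Cyth4 at chr15:78597067-78597086 (plus) and Evi2b at chr11:79523740-79523759 (minus).

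Counted on both strands, GAGGAAGT was in 9 of 54 member windows (16.7%; 8 genes) and in 3.20% of all 32851 windows. None of the 50 windows of the non-blood relatives listed below held it. CCGGAAGT, a sequence read by ETS factors in general and overlapping the first in its last 6 letters, was in 1 member window (1.85%), in 4 windows of the relatives (8%) and in 3.89% of all windows. TGTGGT, the core read by RUNX factors, was in 20.4% of member windows and 16.8% of all windows, and the E-box CACGTG, the sequence Myc and related factors can bind, was in 14.8% and 7.15%. These are counts of letters. They are no measurement of binding, and the members were chosen with their function in blood cells known.

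Library totals ran from 34389817 to 39174367 counts, and the members took 0.0338% and 0.0354% of all counts in the MEF libraries, 0.962% and 1.06% in MCC, and 1.09% and 1.11% in iMac. The 6 macrophage markers fixed for the check of labels (Csf1r, Adgre1, Cd68, Lyz2, Mrc1, Cd14) summed to 8.38 and 12.5 CPM in MEF, against 12337 and 11723 in MCC and 22183 and 18485 in iMac. Lyz2 was the largest part of these sums, with 6290 and 6008 CPM in MCC and 15078 and 11716 in iMac. Csf1r, Adgre1 and Cd68 were also higher in iMac than in MCC. Mrc1 was lower in iMac (1361 and 1363 CPM) than in MCC (2216 and 1995), and Cd14 overlapped (524 and 469 in iMac, 553 and 414 in MCC). The 9 fibroblast markers summed to 20004 and 8476 CPM in MEF, 14.5 and 11.3 in iMac, and 883 and 76.2 in MCC, so fibroblast markers were higher in MCC library 1 than in MCC library 2, in all 9 genes. Markers of lymphocytes were close to 0: the 6 T cell genes in the table summed to at most 2.26 CPM in any library, the 4 B cell genes to at most 1.18, and the 2 NK cell genes had no counts in MCC or iMac. Megakaryocyte markers reached 291 CPM in iMac, nearly all of it from the platelet chemokine gene Pf4 (287 and 265 CPM). The other genes of that list in the table were low in iMac, with means of 0.660 CPM for Itga2b (3.47 in MEF), 0.0897 for Gp9 and 3.03 for Ppbp. In MCC and iMac neutrophil markers were at or under 1.53 CPM, mast cell markers at or under 0.0780 and dendritic cell markers under 10. Endothelial markers were at or under 10.3 CPM there and erythroid markers at or under 12.5. The erythroid sum was 1.14 and 1.55 CPM in MEF and 11.8 and 12.5 in iMac, where nearly all of it came from Epor (11.6 and 12.3 CPM). In these bulk libraries fewer cells of a type and less RNA per cell cannot be told apart.

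Of the 47 members, 45 passed the filter on low counts, and each of these 45 was higher in MCC than in MEF and higher in iMac than in MEF (edgeR quasi-likelihood test, Benjamini-Hochberg over 18613 genes, adjusted p under 0.05). Of all genes tested 23.4% were called higher in MCC and 25.1% in iMac. All 45 rose by at least 2-fold in both comparisons, as did 13.2% and 14.6% of all genes, and in all 45 the MCC and iMac libraries lay above both MEF libraries, as in 38.2% and 39.1% of all genes. The median log2 fold change of the 45 was 8.80 in MCC (8.77 with members at 0 in MEF set to their bound) and 8.90 in iMac, where the median over all genes tested was -0.05 and -0.06. Of the 45, 27 were under 1 CPM in MEF, and those near 0 there could pass the filter only through the groups where they were high, which makes these counts a description. Leaving out MEF library 1 or MEF library 2 moved 14 and 14 members by over 1.5 times in MCC and 13 and 16 in iMac, Sash3 most, from 10.60 to 14.65 on the log2 scale in MCC without MEF library 2. Sash3 had 0 counts in MEF library 1 and 4 in MEF library 2. The value of 14.65 thus has no MEF count behind it and is no measured fold change. With either MEF library left out, the smallest log2 fold change of a tested member was 1.11. Both comparisons use the same MEF libraries.

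**Figure D1:**
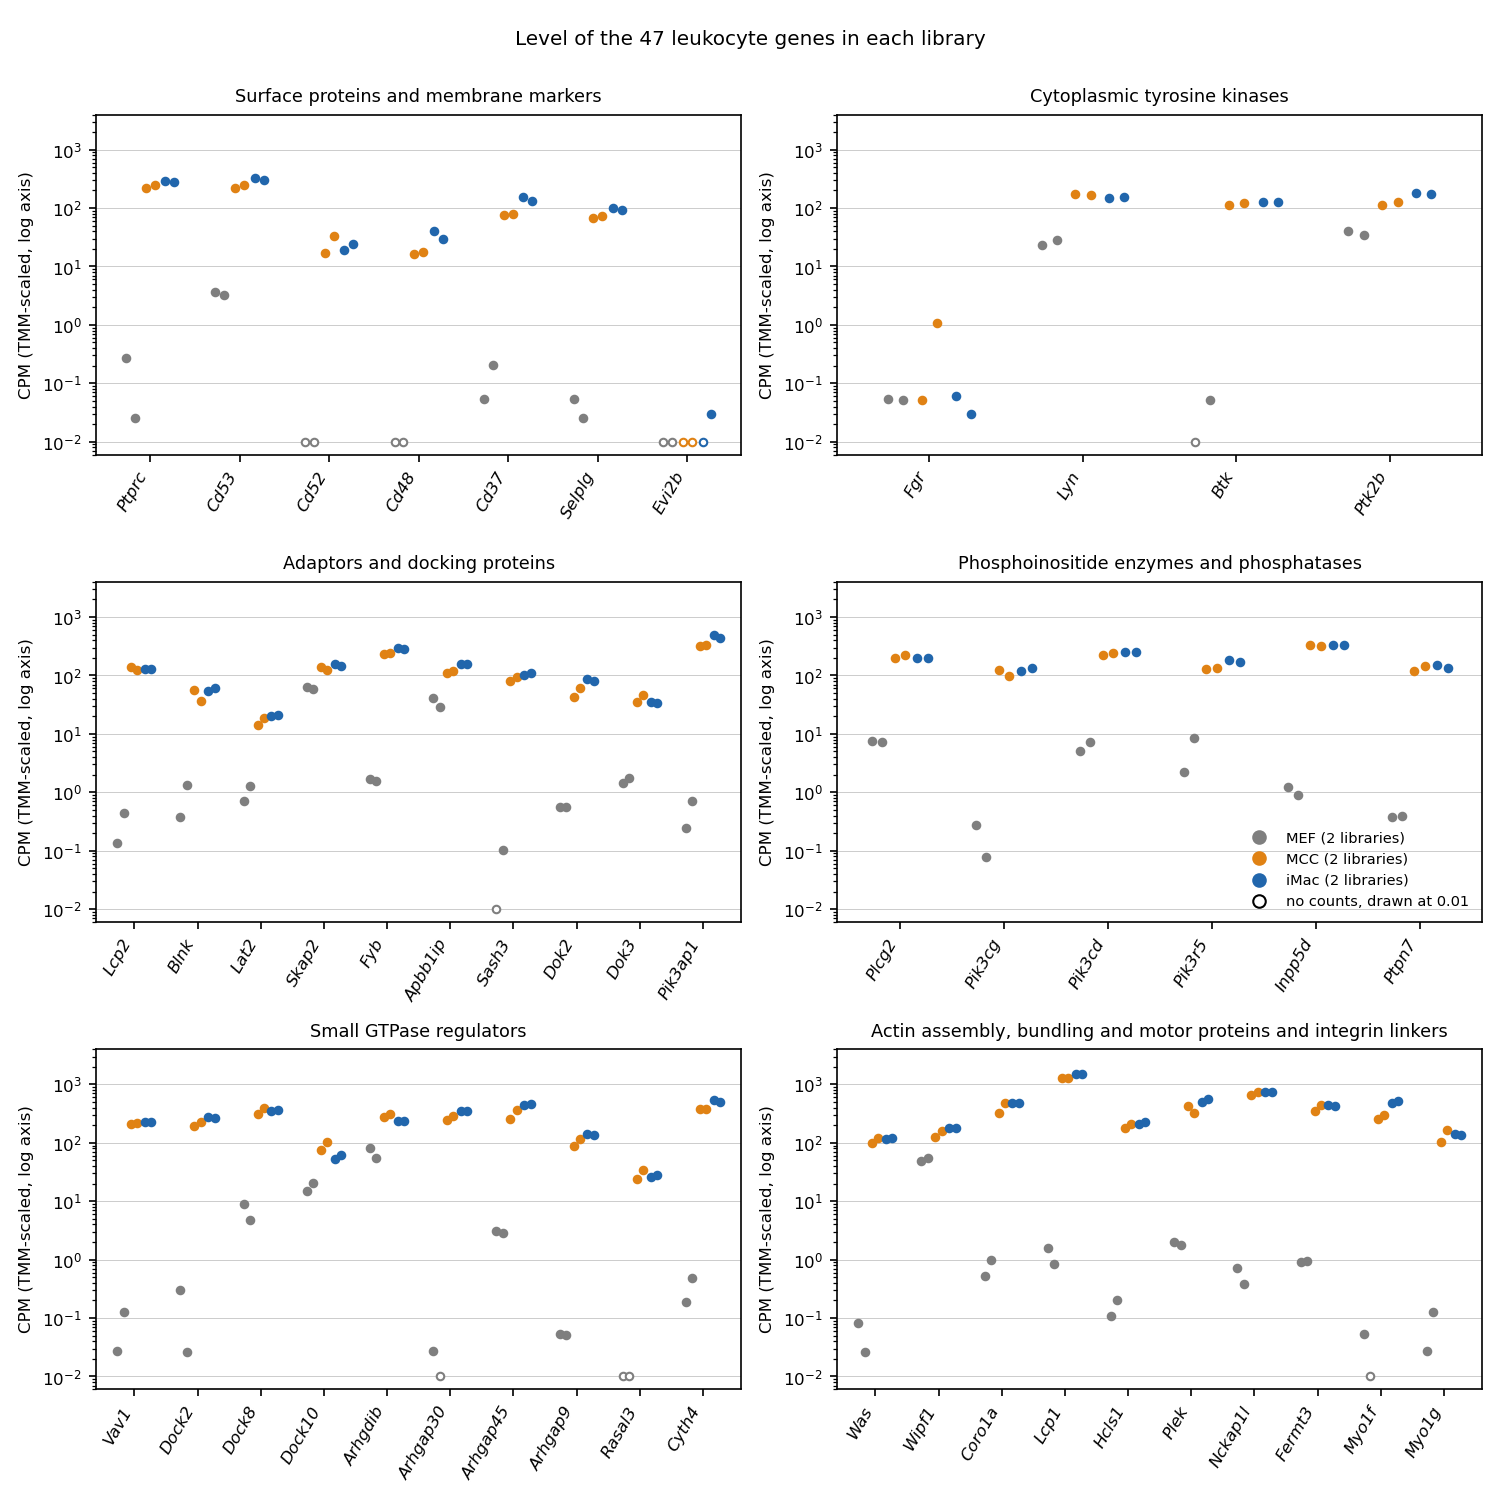
Level of each of the 47 members in the 6 libraries, in 6 panels by role, as TMM-scaled CPM on a log axis; each point is 1 library and open points have no counts. In all genes but Evi2b and Fgr the 4 MCC and iMac points lie above both MEF points, and the distance is short in Skap2, Wipf1, Arhgdib, Ptk2b, Apbb1ip, Lyn and Dock10.

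Among the 7 surface proteins, Ptprc, the phosphatase CD45 that sets Src-family kinases ready in leukocytes, had 0.271 and 0.0258 CPM in the MEF libraries, 219 and 248 in MCC and 289 and 281 in iMac. Its log2 fold change was 10.61 ± 0.64 in MCC (SE; adjusted p = 0.000556) and 10.90 ± 0.64 in iMac (adjusted p = 0.000423). Cd53 and Cd37 encode tetraspanins, proteins with several membrane passes that organise other surface proteins in leukocytes. Cd53 was at 3.61 and 3.25 CPM in MEF, at 224 and 244 in MCC and at 326 and 297 in iMac, a log2 fold change of 6.09 ± 0.13 and 6.51 ± 0.13 (adjusted p = 6.08e-05 and 5.01e-05). Cd37 was at 0.0542 and 0.206 CPM in MEF, at 75.9 and 79.2 in MCC and at 152 and 132 in iMac, and rose by 9.16 ± 0.41 and 10.04 ± 0.42 on the log2 scale (adjusted p = 0.000258 and 0.000173). Cd53 was the surface gene that reached 1 CPM in both MEF libraries, and the groups did not overlap in any of the 3. The fold changes of Ptprc and Cd37 depended on the MEF library: Ptprc was at 12.97 and 13.26 without the first and 9.78 and 9.99 without the second, and Cd37 at 8.54 and 9.41 and at 10.45 and 11.24.

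Cd48, a ligand of SLAM-family receptors, and Cd52, a short glycoprotein anchored by lipid, had no counts in MEF. Cd48 had 16.6 and 17.9 CPM in MCC and 40.3 and 29.5 in iMac. Against a floor of 3 counts over the MEF group, Cd48 was therefore at least 435-fold higher (MCC) and at least 883-fold higher (iMac) than in MEF. Cd52 was spread more widely, with 16.8 and 33.6 CPM in MCC and 19.3 and 24.0 in iMac. Its bounds were at least 633-fold higher and at least 546-fold higher. Selplg, the ligand through which leukocytes roll on selectins, had 3 counts over both MEF libraries. It was 1808-fold higher (95% counting interval 618 to 8770.2) in MCC, where it had 68.8 and 74.6 CPM, and 2422-fold higher (95% counting interval 829 to 11749.9) in iMac.

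Evi2b (ENSMUSG00000093938.2, chr11:79515056-79523762 on the minus strand of mm10), a membrane protein encoded within an intron of the neurofibromin gene, had a single count, in iMac library 2, and no test. Its exons share 98.5% of their bases with Evi2, an annotated gene on the same strand, and reads in shared bases cannot be assigned to either. Evi2 itself had 2 and 1 counts in MEF, against 64 and 106 in MCC and 104 and 88 in iMac. The neighbouring Evi2a had 14 and 7, 1968 and 1946, and 3873 and 3499 counts. The count of Evi2b is therefore no measure of its expression.

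The 4 cytoplasmic tyrosine kinases included a pair already at 10 CPM or more in MEF, Lyn and Ptk2b, and one that hardly appeared anywhere, Fgr. Lyn, the Src-family kinase that phosphorylates receptor motifs in myeloid and B cells, was at 23.3 and 28.5 CPM in MEF, at 172 and 168 in MCC and at 149 and 153 in iMac. Its log2 fold change was 2.72 ± 0.13 in MCC (adjusted p = 0.000284) and 2.54 ± 0.13 in iMac (adjusted p = 0.000259). Ptk2b, or Pyk2, the calcium-regulated relative of focal adhesion kinase, was at 40.7 and 35.2 CPM in MEF, at 113 and 126 in MCC and at 184 and 175 in iMac. It rose by 1.65 ± 0.12 and 2.24 ± 0.12 on the log2 scale (adjusted p = 0.000876 and 0.000316). Btk, a Tec-family kinase of B cells and myeloid cells, had 2 counts over the MEF libraries and 114 and 122 CPM in MCC and 126 and 128 in iMac. It was 4472-fold higher (95% counting interval 1238 to 36930.4) in MCC and 4801-fold higher (95% counting interval 1329 to 39648) in iMac.

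Fgr, another Src-family kinase of myeloid cells, did not pass the filter. Its counts were 2 and 2 in the MEF libraries, 2 and 41 in MCC and 2 and 1 in iMac, so 1 of the 4 MCC and iMac libraries held nearly all of its reads and iMac did not stand above MEF. With MCC library 1 left out Fgr passed the filter and was called, which made 46 members higher in MCC.

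The 10 adaptors and docking proteins rose by a median of 6.13 on the log2 scale in MCC and 6.63 in iMac. Pik3ap1, or BCAP, which links receptors to phosphoinositide 3-kinase, had 0.244 and 0.696 CPM in MEF, against 317 and 333 in MCC and 489.7 and 439 in iMac. Its log2 fold change was 9.41 ± 0.48 and 9.93 ± 0.49 (adjusted p = 0.000362 and 0.000265), and 10.41 and 10.85 without MEF library 2. Fyb, the adaptor ADAP that couples receptors to integrins, was at 1.68 and 1.55 CPM in MEF, at 233 and 239 in MCC and at 291 and 281 in iMac, and rose by 7.19 ± 0.11 and 7.47 ± 0.11 (adjusted p = 4.68e-05 and 4.18e-05). Both libraries of each group lay close together in Fyb. Apbb1ip, or RIAM, which brings talin to integrins under the GTPase Rap1, was already at 40.8 and 29.0 CPM in MEF and reached 111 and 118 in MCC and 159.9 and 156 in iMac. Its rise was 1.72 ± 0.18 and 2.18 ± 0.18 on the log2 scale (adjusted p = 0.00224 and 0.00102).

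Skap2, a partner of Fyb, was the member with the smallest rise in MCC, from 62.7 and 58.5 CPM in MEF to 137 and 122 in MCC and 156 and 146 in iMac (1.10 ± 0.10 and 1.32 ± 0.10 on the log2 scale). Lcp2, or SLP-76, and Blnk, or SLP-65, are scaffolds for phospholipase C gamma in different leukocytes, and both were found here: Lcp2 at 138 and 123 CPM in MCC against 0.136 and 0.438 in MEF, and Blnk at 56.4 and 36.7 against 0.379 and 1.31. The transmembrane adaptor Lat2 (NTAL) was low, at 20.04 and 21.3 CPM in iMac and 0.705 and 1.26 in MEF, and shares 36.3% of its exonic bases with Rfc2 on the opposite strand. Nothing in the labels or the file says whether reads were counted by strand. Sash3, an SH3 adaptor of lymphocytes, was at 101 and 111 CPM in iMac and 0 and 0.103 in MEF. Among docking proteins that dampen kinase signals, Dok2 rose from 0.569 and 0.567 CPM in MEF to 85.4 and 81.4 in iMac, and Dok3 from 1.46 and 1.73 to 35.5 and 33.8.

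All 6 enzymes of phosphoinositide signalling and phosphatases rose, by 4.62 to 9.33 on the log2 scale in MCC and 4.73 to 9.50 in iMac. Inpp5d, or SHIP1, which removes a phosphate from the lipid made by phosphoinositide 3-kinase, was at 1.25 and 0.902 CPM in MEF, at 334 and 325 in MCC and at 328 and 331 in iMac (log2 fold change 8.26 ± 0.20 and 8.26 ± 0.20; adjusted p = 7.27e-05 and 5.91e-05). Pik3cd, the delta catalytic subunit of that kinase, was at 5.01 and 7.21 CPM in MEF, at 223 and 245 in MCC and at 253 and 250.5 in iMac (log2 fold change 5.26 ± 0.22 and 5.36 ± 0.22; adjusted p = 0.000191 and 0.000158). Plcg2, the phospholipase C gamma of myeloid and B cells, was at 7.70 and 7.32 CPM in MEF, at 201 and 222 in MCC and at 199 and 199.5 in iMac (log2 fold change 4.82 ± 0.11 and 4.73 ± 0.11; adjusted p = 6.08e-05 and 5.24e-05). MCC and iMac lay close to each other in all 3 of these genes.

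The gamma catalytic subunit Pik3cg, activated by G protein-coupled receptors, had 0.271 and 0.0773 CPM in MEF and 121 and 133 in iMac. Its regulatory partner Pik3r5 (p101) had unequal values in the MEF libraries, 2.20 and 8.55 CPM, and 181 and 167 in iMac. Ptpn7, a phosphatase of MAP kinases in blood cells, had 0.379 and 0.386 CPM in MEF and 152 and 134 in iMac.

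Regulators of small GTPases include exchange factors, which load the GTPase, and GAPs, which switch it off. Cyth4, an exchange factor for Arf GTPases, was at 0.190 and 0.489 CPM in MEF, at 382 and 386 in MCC and at 533 and 505 in iMac, a log2 fold change of 10.12 ± 0.42 and 10.55 ± 0.43 (adjusted p = 0.000192 and 0.000158), and of 11.01 and 11.37 without MEF library 2. Dock8, an exchange factor for Cdc42, was at 9.11 and 4.69 CPM in MEF, at 313 and 390.4 in MCC and at 351 and 369 in iMac (5.67 ± 0.39 and 5.71 ± 0.39 on the log2 scale; adjusted p = 0.000795 and 0.000607). Arhgap45, a RhoGAP, was at 3.12 and 2.81 CPM in MEF, at 258 and 362 in MCC and at 450.0 and 454 in iMac (6.71 ± 0.23 and 7.25 ± 0.23; adjusted p = 0.000131 and 9.97e-05). The MCC libraries differed from each other in Arhgap45 and Dock8 by more than the iMac libraries did, and both genes were higher in MCC library 2.

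The exchange factors Vav1 and Dock2 act mainly on Rac. Vav1 rose from 0.0271 and 0.129 CPM in MEF to 209.6 and 222 in MCC and 229.7 and 226 in iMac, and Dock2 from 0.298 and 0.0258 in MEF to 197 and 223 in MCC and 277 and 271 in iMac. Arhgap9 had 2 counts in each MEF library and 140.4 and 137 CPM in iMac. Arhgap30, another RhoGAP, had 1 count over the MEF libraries and 352 and 348 CPM in iMac, which was 26479-fold higher (95% counting interval 4752 to 1045890.0). Rasal3, a RasGAP, had no counts in MEF, 24.5 and 34.5 CPM in MCC and 25.9 and 27.6 in iMac, which made it at least 743-fold higher and at least 675-fold higher. The remaining genes of this group were already present in fibroblasts: Dock10 was at 14.9 and 20.5 CPM in MEF and Arhgdib, the GDP-dissociation inhibitor of small GTPases in blood cells, at 83.0 and 54.8. Dock10 rose by 2.33 ± 0.25 in MCC and 1.71 ± 0.24 in iMac, and Arhgdib by 2.09 ± 0.21 and 1.78 ± 0.21, on the log2 scale.

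All 10 actin genes rose, by a median of 10.15 on the log2 scale in MCC and 10.33 in iMac. Lcp1, or L-plastin, which bundles actin filaments, was at 1.57 and 0.850 CPM in MEF, at 1308 and 1307 in MCC and at 1512 and 1529 in iMac. Its log2 fold change was 10.07 ± 0.38 in MCC (adjusted p = 0.000155) and 10.29 ± 0.38 in iMac (adjusted p = 0.000135). Nckap1l, or Hem1, the blood-cell subunit of the WAVE complex, was at 0.732 and 0.386 CPM in MEF, at 656 and 735 in MCC and at 748 and 737 in iMac (log2 fold change 10.28 ± 0.35 and 10.37 ± 0.35; adjusted p = 0.000132 and 0.000113). Plek, or pleckstrin, a substrate of protein kinase C, was at 2.03 and 1.78 CPM in MEF, at 424 and 324 in MCC and at 499.9 and 556 in iMac (log2 fold change 7.62 ± 0.22 and 8.11 ± 0.22; adjusted p = 8.78e-05 and 6.7e-05). Of these 3 genes Plek was the one higher in MCC library 1 than in MCC library 2 by more than the libraries of iMac differed.

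Was, the protein WASP that activates Arp2/3, rose from 0.0813 and 0.0258 CPM in MEF to 117 and 123 in iMac, while its partner Wipf1 (WIP), at 48.5 and 54.9 CPM in MEF, rose by only 1.44 ± 0.14 and 1.79 ± 0.14 on the log2 scale to 182 and 177 in iMac. Coro1a, an actin-binding coronin, had 324 and 482 CPM in MCC, the wider spread, and 471 and 485 in iMac, against 0.515 and 0.979 in MEF. Hcls1 (HS1), a substrate of Lyn that binds Arp2/3, went from 0.108 and 0.206 to 211 and 229.7 CPM in iMac. Fermt3 (kindlin-3), which activates integrins in blood cells, went from 0.894 and 0.953 to 448 and 436. Of the class I myosins, Myo1f had 2 counts in MEF library 1, none in MEF library 2, and 486 and 517 CPM in iMac, where it was 18979.5-fold higher (95% counting interval 5254 to 156727). Myo1g went from 0.0271 and 0.129 CPM in MEF to 144 and 135 in iMac.

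Per kilobase of merged exons, which allows levels of different genes to be compared, the highest members in iMac were Cd53 at 179 CPM per kb, Coro1a at 172, Lcp1 at 159.9, Arhgdib at 139, Nckap1l at 125 and Plek at 118. In MEF Arhgdib led on this scale with 40.4 CPM per kb, followed by Wipf1 with 8.77 and Lyn with 6.35.

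Sorted by level in MEF, 29 members were under 1 CPM, 11 between 1 and 10 CPM, and 7 at 10 CPM or more (Lyn, Ptk2b, Skap2, Apbb1ip, Dock10, Arhgdib, Wipf1). The 27 tested members of the first class had a median log2 fold change of 10.34 in MCC (10.12 with zeros at their bound) and 10.72 in iMac (10.37). The 11 of the middle class (Cd53, Fyb, Dok3, Plcg2, Pik3cd, Pik3r5, Inpp5d, Dock8, Arhgap45, Lcp1, Plek) had 6.09 and 6.51. The 7 of the last class had enough counts to pass the filter on MEF alone, and they rose by 1.10 to 2.72 in MCC and 1.32 to 2.54 in iMac, with medians of 1.72 and 1.79. Of the 9817 genes at 10 CPM or more in MEF, 25.1% were called higher in MCC and 27.2% in iMac.

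Between MCC and iMac 0 of the 45 tested members were called (edgeR, smallest adjusted p = 0.136, for Ptk2b), and 0.0215% of all genes were. The median difference was 0.25 on the log2 scale, with iMac higher, where the median over all genes was -0.02. At an unadjusted p under 0.05 there were 13 members, 12 of them higher in iMac, where 18.2% of all genes reached that level. In 28 members both iMac libraries lay above both MCC libraries and in 5 both lay below, where 27.7% and 27.9% of all genes did so. No member was called, so the genes here were chosen after their values were seen: the largest differences were in Cd48 (16.6 and 17.9 CPM in MCC, 40.3 and 29.5 in iMac; log2 difference 1.02 ± 0.21), Myo1f (253 and 295 in MCC, 486 and 517 in iMac; 0.87 ± 0.26) and Cd37 (75.9 and 79.2 in MCC, 152 and 132 in iMac; 0.87 ± 0.26). Dock10 was the furthest in the other direction, with 74.3 and 104 CPM in MCC and 53.2 and 63.0 in iMac (log2 difference -0.62 ± 0.24).

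This comparison depended on the tool. DESeq2 called 16 members higher in iMac and limma-voom called 0, and edgeR fitted to MCC and iMac alone called 10. Of all genes, in either direction, DESeq2 called 2734 of 18613 and limma-voom 146 of 18613. Fitted to MCC and iMac alone, edgeR called 1364 of 15859. Cd37, Cd48, Cd53, Selplg, Ptk2b, Pik3ap1, Cyth4 and Myo1f were called both by DESeq2 and by that smaller edgeR fit. With MCC library 2 left out, the log2 difference of Dok2 was 0.84. That fit, with 1 MCC library, also called more of all genes than the fit to all libraries did. MCC library 1, with the higher fibroblast markers, was the lower of the 2 MCC libraries in 37 of the 45 members, by a median of 0.15 on the log2 scale. Of all 18613 genes tested, MCC library 1 was the lower in 8907 and the higher in 9353, with a median difference of 0.002. The part of the remaining fibroblast RNA in the difference between MCC and iMac was not tested.

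**Figure D2:**
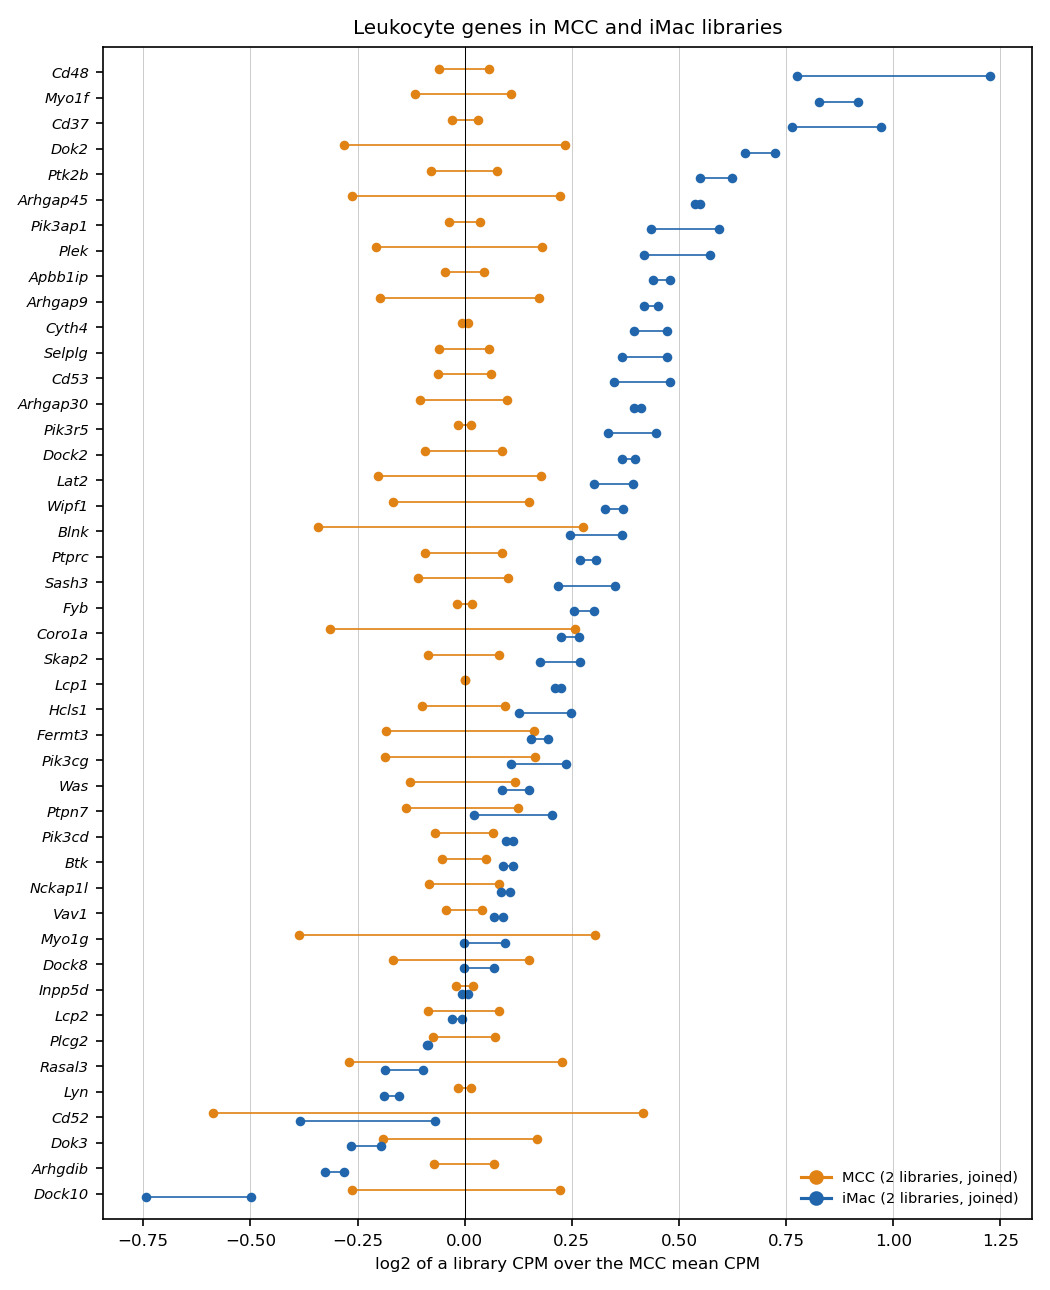
Each of the 45 tested members in the 2 MCC libraries (orange) and the 2 iMac libraries (blue), as the log2 of a library's CPM over the MCC mean, ordered by the iMac mean, with a line joining the libraries of a group. The blue points lie to the right of both orange points in 28 genes and to the left of both in 5, and Cd48, Myo1f and Cd37 are furthest right.

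For 34 of the 47 members at least 1 close relative known mainly outside blood cells could be listed, 44 relatives in all. No such relative was listed for Ptprc, Cd53, Cd52, Cd48, Cd37, Selplg, Evi2b, Lcp2, Blnk, Lat2, Skap2, Pik3ap1 or Pik3r5. Of the 44 relatives 39 were at 1 CPM or more in MEF and 40 were tested; Fermt1, Bmx, Ptprr and Fyb2 were under 1 CPM in every library and were not. In MCC 24 of the 40 were lower than in MEF and 8 higher, and in iMac 24 were lower and 9 higher (edgeR). Of all genes tested 29.6% were lower in MCC and 32.4% in iMac. Lower by at least 2-fold were 19 relatives in MCC and 20 in iMac, all of them at 1 CPM or more in MEF, where 26.2% and 29.4% of the genes at that level were. The median log2 fold change of the 40 was -1.20 in MCC and -1.47 in iMac.

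In all, 18 of the 34 members had such a relative that was lower by at least 2-fold in both MCC and iMac, through 19 relatives. They were Lyn, Fgr, Ptk2b, Dok2, Dok3, Plcg2, Dock2, Dock10, Arhgap45, Rasal3, Cyth4, Wipf1, Lcp1, Hcls1, Plek, Nckap1l, Fermt3 and Myo1g. Of these 18, 17 were themselves higher in both comparisons, and Fgr was not tested. All 45 tested members were higher in both, so this holds for any choice of them and says nothing about the relatives. For 14 of the 18 at least 1 relative kept its call with each library left out in turn. The 4 others were Wipf1, Plek, Nckap1l and Fermt3, through Wipf3, Plek2, Nckap1 and Fermt2. Lyn and Fgr share their relatives, as do Dok2 and Dok3. More than 10% of exonic bases are shared with another gene in Evi2b (98.5%), Lat2 (36.3%), Cd52 (14.5%), Fyb (10.2%) and Rasal3 (13.0%), and among the relatives in Dok4 (31.2%), Inppl1 (20.3%), Coro1b (13.5%), Cyth2 (11.1%) and Ptprr (11.0%), so that reads there may be split.

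**Figure D3:**
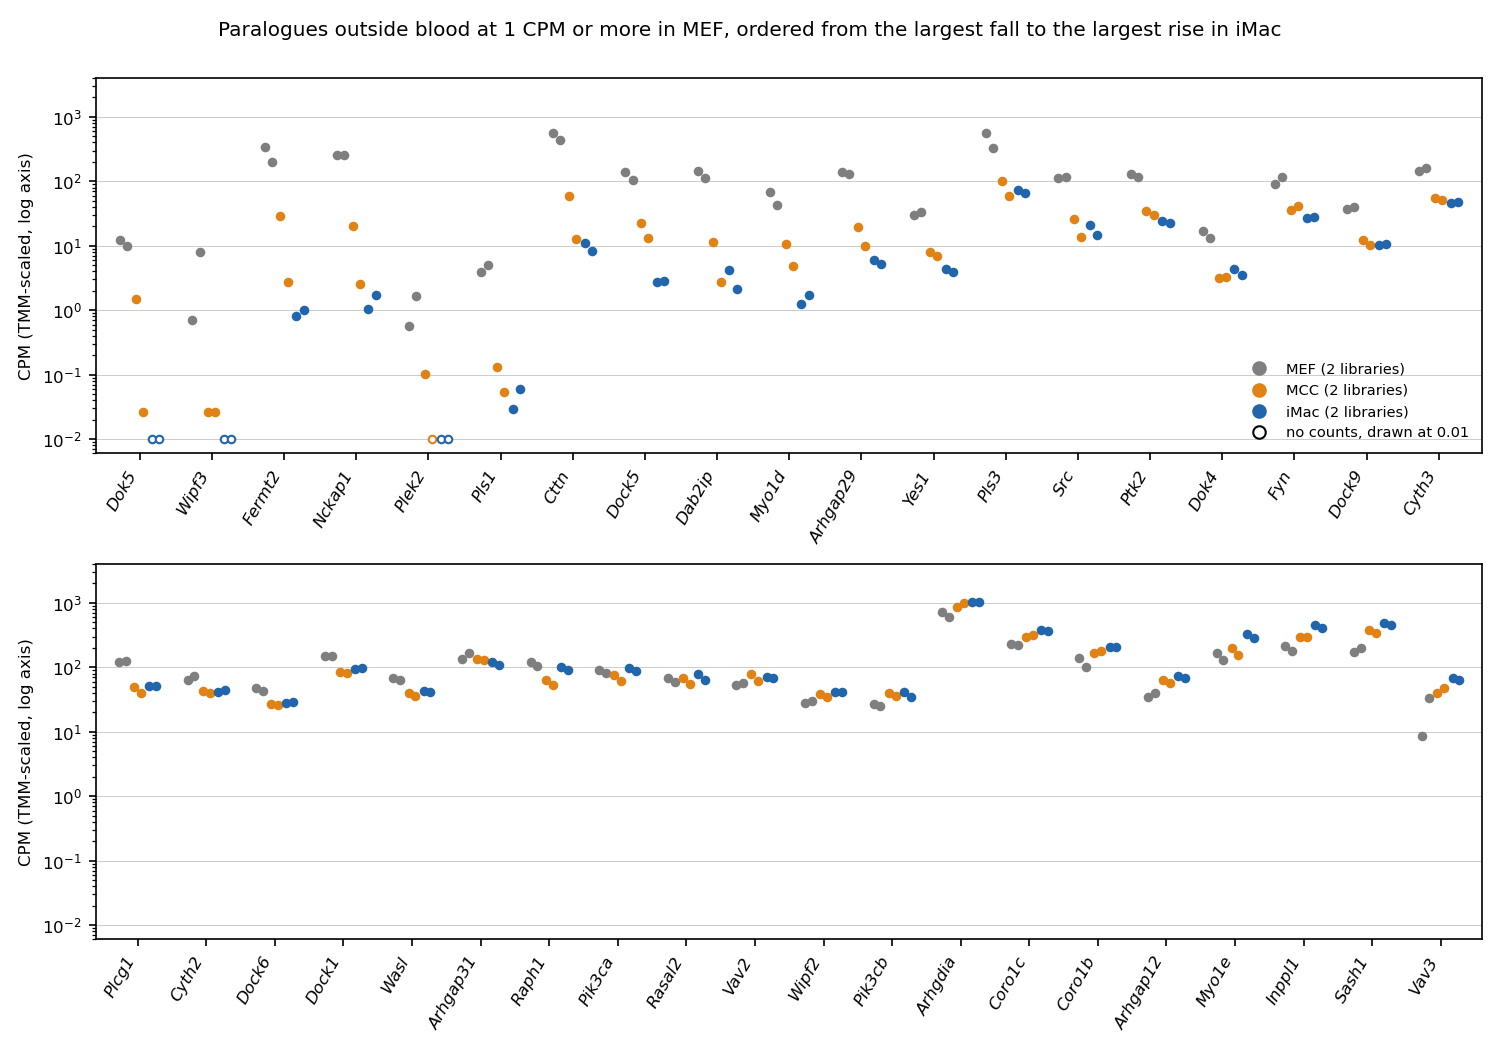
Level of the 39 non-blood relatives at 1 CPM or more in MEF in the 6 libraries, as TMM-scaled CPM on a log axis, in 2 rows ordered from the largest fall to the largest rise in iMac against MEF; each point is 1 library and open points have no counts. At the left of the upper row both iMac points lie far below both MEF points, and at the right of the lower row, at Inppl1, Sash1 and Vav3, the MEF points are the lowest; Vav3, with unequal MEF libraries, was not called.

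Several relatives among actin and adhesion proteins fell to low levels in iMac. Nckap1, the WAVE subunit of most tissues, had 260.0 and 255 CPM in MEF, against 19.9 and 2.57 in MCC and 1.05 and 1.72 in iMac, a log2 fold change of -4.52 ± 0.99 and -7.54 ± 1.16 (adjusted p = 0.0164 and 0.00526). Without MEF library 2 its adjusted p in MCC was 0.0568, and without iMac library 1 it was 0.0501 in iMac. Fermt2, kindlin-2, had 339 and 199 CPM in MEF, against 29.0 and 2.70 in MCC and 0.806 and 1.03 in iMac (-4.08 ± 1.11 and -8.19 ± 1.39; adjusted p = 0.0307 and 0.00684). In MCC the call of Fermt2 was lost when either MEF library (adjusted p = 0.0944 without the first and 0.0739 without the second) or either iMac library (0.0680 and 0.0682) was left out. In iMac it was lost without either iMac library (0.0592 and 0.0570). Without MCC library 1 the log2 fold change in MCC was -6.63 for Nckap1 and -6.62 for Fermt2, and without MCC library 2 it was -3.57 and -3.09. In both genes MCC library 1 was several times above MCC library 2, as were the fibroblast markers, and the part of fibroblast RNA in these MCC levels was not tested.

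Cttn, cortactin, the relative of Hcls1, fell too and kept its call with each library left out in turn, with 569 and 436 CPM in MEF, against 59.1 and 12.6 in MCC and 11.0 and 8.32 in iMac (log2 fold change -3.81 ± 0.77 and -5.70 ± 0.84; adjusted p = 0.0131 and 0.00473). On leaving out the first or the second MCC library, Cttn had a log2 fold change of -5.30 or -2.97 in MCC. The plastins beside Lcp1 both fell: Pls3 from 567 and 334 CPM in MEF to 72.4 and 66.0 in iMac (-2.48 ± 0.36 in MCC, -2.70 ± 0.37 in iMac), and Pls1 from 3.93 and 5.05 to 0.0299 and 0.0603, where it was 100.1-fold lower (95% counting interval 33.95 to 488). Pls3 thus remained well measurable in iMac and Pls1 did not. Myo1d, a motor related to Myo1g, fell from 69.0 and 42.6 CPM in MEF to 10.8 and 4.90 in MCC and 1.25 and 1.75 in iMac (-2.83 ± 0.48 and -5.21 ± 0.54; -3.50 in MCC without MCC library 1).

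Plek2 and Wipf3 were low in MEF already. Plek2 had 0.569 and 1.65 CPM in MEF and no counts in iMac, where it was at least 24.9-fold lower; its adjusted p of 0.0236 became 0.0976 without MEF library 2 and 0.0828 or 0.0833 without the first or second iMac library. In MCC the Plek2 adjusted p of 0.0440 rose to between 0.0614 and 0.196 on leaving out any library but MCC library 1, and by DESeq2 it was 0.105. Wipf3 had 0.705 and 8.09 CPM in MEF, no counts in iMac, and was at least 99.8-fold lower there. That bound was 15.7-fold from MEF library 1 alone and 179.7-fold from MEF library 2 alone. The Wipf3 adjusted p of 0.0241 in iMac became 0.0778 or 0.0786 without the first or second iMac library, and that of 0.0313 in MCC became 0.0925 or 0.102 without the first or second MCC library. By limma-voom the adjusted p of Wipf3 was 0.136 in MCC and 0.0820 in iMac. The bound of Plek2 in iMac was 12.6-fold from MEF library 1 alone and 36.6-fold from MEF library 2 alone. For Plek and Wipf1 the call of the relative thus depended on single libraries, while both iMac libraries had no counts of either relative.

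Among kinases and their substrates, the Src-family members of most tissues fell. Src went from 114 and 117 CPM in MEF to 26.0 and 13.8 in MCC and 20.8 and 14.6 in iMac (-2.53 ± 0.35 and -2.70 ± 0.35; adjusted p = 0.00484 and 0.00343). Yes1 went from 30.0 and 33.1 to 4.42 and 3.86 CPM in iMac (-2.06 ± 0.17 in MCC and -2.93 ± 0.18 in iMac), and Fyn from 91.0 and 116 to 26.7 and 28.1 (-1.43 ± 0.16 and -1.92 ± 0.16). Ptk2, the focal adhesion kinase, fell from 132 and 118 CPM in MEF to 35.1 and 30.5 in MCC and 24.5 and 22.5 in iMac (-1.93 ± 0.12 and -2.41 ± 0.13; adjusted p = 0.000682 and 0.000307) while its relative Ptk2b rose. Dok4 was lower in both groups (-2.21 ± 0.24 and -1.94 ± 0.23) but shares 31.2% of its exonic bases with Polr2c. Dok5 had 12.3 and 9.97 CPM in the MEF libraries, 1.51 and 0.0268 in MCC and no counts in iMac. It was called in iMac only, with an adjusted p of 0.0230, which lay from 0.0739 to 0.0838 when any 1 of the MEF or iMac libraries was left out.

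In lipid signalling and at small GTPases the falls differed in size. Plcg1 went from 119 and 127 CPM in MEF to 48.8 and 40.4 in MCC and 50.9 and 51.4 in iMac (-1.46 ± 0.12 and -1.26 ± 0.12). The log2 fold change of Cyth3 was -1.48 ± 0.10 and -1.69 ± 0.10, and that of Dock9, the relative of Dock10, was -1.77 ± 0.16 and -1.88 ± 0.16. Larger changes were in Dock5, from 139 and 104 CPM in MEF to 22.9 and 13.1 in MCC and 2.78 and 2.83 in iMac (-2.75 ± 0.31 and -5.43 ± 0.36), in Arhgap29, from 138 and 131 to 6.03 and 5.19 in iMac (-3.21 ± 0.35 and -4.58 ± 0.37), and in the RasGAP Dab2ip, from 145 and 114 to 4.21 and 2.17 in iMac (-4.18 ± 0.76 and -5.34 ± 0.81; in MCC -5.53 without MCC library 1 and -3.37 without MCC library 2). Wasl, Dock1, Dock6 and Cyth2 were lower by less than 2-fold in both groups, and Raph1 in MCC alone. In iMac the calls of Wasl, Dock6 and Cyth2 were lost without either iMac library, at adjusted p from 0.0529 to 0.0697.

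Relatives called higher than in MEF were 8 of 40 in MCC and 9 of 40 in iMac, which is no larger a share than the 23.4% and 25.1% of all genes. In both comparisons with MEF, Sash1 (from 171 and 199.9 CPM in MEF to 494 and 448 in iMac; 0.97 ± 0.13 and 1.34 ± 0.13 on the log2 scale), Inppl1 or SHIP2 (212 and 179 to 449 and 413; 0.59 ± 0.12 and 1.14 ± 0.12) and Arhgap12 (0.68 ± 0.12 and 0.91 ± 0.12) were higher with each library left out in turn. Wipf2, Coro1b, Coro1c, Arhgdia and Pik3cb were also higher in both, by 0.35 to 0.56 in MCC and 0.52 to 0.81 in iMac, and Myo1e was higher in iMac by 1.04 ± 0.18. Each of these 6 calls was lost on leaving out some library, except that of Coro1c in iMac. Without iMac library 1 or iMac library 2 the number higher in MCC was 4, as it was without MCC library 1, against 8 with all libraries. In iMac it was 4 without iMac library 1 and 5 without iMac library 2, against 9. Vav2, Vav3, Arhgap31, Pik3ca, Rasal2 and Ptpn5 were called in neither comparison. Between MCC and iMac 0 of 40 relatives were called by edgeR (16 at an unadjusted p under 0.05, as were 18.2% of all genes). DESeq2 called 7 higher and 10 lower, and limma-voom called 0. Of all 18613 genes DESeq2 called 2734 and limma-voom 146, in either direction. Without MCC library 2 the log2 differences of Nckap1, Arhgap29, Yes1, Cttn, Myo1d, Fermt2 and Dock5 ran from -1.11 to -5.12, and Dok5 had no counts in iMac.

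Across the 19 relatives lower by at least 2-fold in MCC, 16 were higher in MCC library 1 than in MCC library 2, by a median of 0.28 on the log2 scale, and the 9 fibroblast markers by a median of 2.57. Among all 18613 genes tested, 9353 were higher in MCC library 1 and 8907 in MCC library 2, with a median difference of 0.002. In the iMac libraries, where the summed fibroblast markers were at most 14.5 CPM, 4 relatives had fallen under 1 CPM in both libraries (Wipf3, Pls1, Plek2 and Dok5). Fermt2, Nckap1 and Myo1d lay between 0.806 and 1.75 CPM there.

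The balance within a family was taken as the member's share of the summed CPM per kb of member and relatives, in 31 families. The median share over the families was 0.488% ± 0.226 in MEF, 84.9% ± 2.68 in MCC and 85.2% ± 0.130 in iMac (SD, n = 2 libraries). The member held over 50% in 2 families in MEF, in 28 in MCC and in 27 in iMac. It held under 10% in 19 families in MEF and in none in MCC or iMac. In MEF the 2 families were Fyb with Fyb2, where Fyb2 was close to 0, and Wipf1 with Wipf2 and Wipf3 (67.4% ± 3.05).

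Some families, picked here after their values were seen, show how the shares arose. For Nckap1l the share went from 0.181% ± 0.0767 in MEF to 98.04% ± 2.18 in MCC and 99.8% ± 0.0787 in iMac, as Nckap1l rose from 0.0942 to 125 CPM per kb and Nckap1 went from 51.9 to 0.278 between MEF and iMac. For Coro1a the share rose from 0.462% ± 0.262 in MEF to 62.5% ± 0.618 in iMac although its relatives Coro1b and Coro1c also rose, from 60.3 to 103 CPM per kb together. On the mean of both libraries 4 families stayed below 50% in iMac: Arhgdib at 23.2% ± 0.472, Inpp5d at 39.2% ± 1.56, Sash3 at 41.9% ± 3.27 and Rasal3 at 49.5% ± 5.40. In the first 3 of these the relative was itself higher in iMac than in MEF.

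The summed level of a family per kb was higher than in MEF in 28 of 31 families in MCC and likewise in 28 in iMac. Every tested member was higher in both groups, so higher shares and sums follow in large part from the choice of members. Other gene families were not examined for comparison. The 3 lower sums were those of Hcls1 with Cttn, of the Src-family kinases, and of Rasal3 with its relatives. The Src-family sum went from 60.7 CPM per kb in MEF to 56.3 in MCC and 48.0 in iMac, while the share of Lyn and Fgr in it rose from 10.47% ± 0.480 to 74.5% ± 1.38 and 77.3% ± 1.64. Phosphoinositide 3-kinase catalytic subunits went from 7.11% ± 2.03 for Pik3cg and Pik3cd together in MEF to 78.1% ± 1.75 in iMac, with a sum of 14.1 CPM per kb in MEF and 70.9 in iMac.

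**Figure D4:**
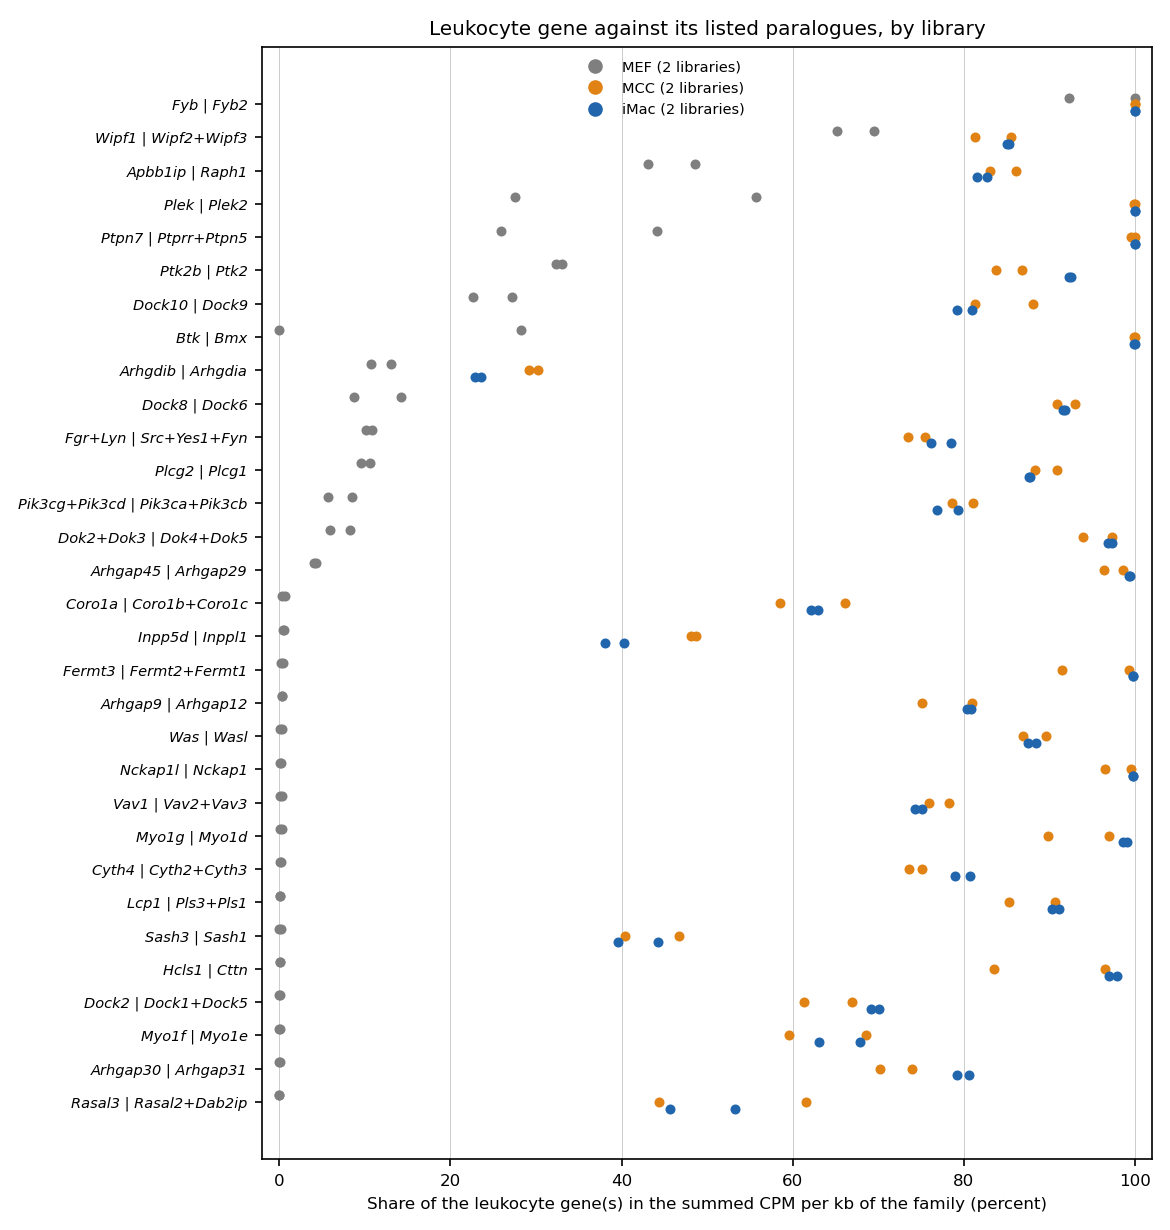
Share of the leukocyte gene (or genes) in the summed CPM per kb of its family, in percent, for 31 families, each point 1 library, ordered by the MEF mean. The grey MEF points are at or under 10% in most families, and the orange and blue points lie above 50% in all but Arhgdib, Inpp5d, Sash3 and part of Rasal3.

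The members act with other proteins, and 79 such genes were listed in 5 groups, of which 74 were tested. In MCC 37 were higher and 21 lower than in MEF, and in iMac 37 were higher and 22 lower, against 23.4% and 25.1% of all genes higher and 29.6% and 32.4% lower. Unlike the members, these genes moved in both directions, and the share of them called lower was no larger than that of all genes. Without MCC library 2, 13 were lower in MCC, and without iMac library 1 or iMac library 2, 12 or 10 were lower in iMac. Between MCC and iMac edgeR called 0 of the 74, with 19 at an unadjusted p under 0.05.

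Of 18 subunits of the WAVE and Arp2/3 complexes 11 were higher and 4 lower in MCC, and 12 higher and 5 lower in iMac, with a median log2 fold change of 0.57 and 0.73. The share lower was no larger than among all genes (29.6% in MCC and 32.4% in iMac), where 23.4% and 25.1% were higher. Arpc3, an Arp2/3 subunit, went from 139.8 and 101 CPM in MEF to 358 and 337 in iMac (1.33 ± 0.17 and 1.53 ± 0.17). The WAVE proteins Wasf1 and Wasf3 fell: Wasf3 from 32.1 and 33.9 CPM to 3.22 and 0.375 in MCC and no counts in iMac, where it was at least 735-fold lower, and Wasf1 with a log2 fold change of -3.03 ± 0.56 and -3.64 ± 0.59. In MCC the adjusted p of Wasf3, 0.0334, was 0.102 or 0.116 without the first or second MEF library, and that of Wasf1, 0.0107, was 0.0521 without MEF library 2. Abi3, a subunit found in blood cells, rose from 0.108 and 0.232 to 10.3 and 9.89 CPM, with 75.8% of its exonic bases shared with Zfp652. Cyfip1 was at 258 and 221 CPM in MEF and 299 and 296 in MCC (adjusted p = 0.0574), and Abi2 was at 31.9 and 51.7 CPM in MEF and 43.0 and 45.1 in iMac (adjusted p = 0.800).

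Among 17 small GTPases and Elmo partners 4 were higher and 9 lower in both MCC and iMac. The share higher was about that of all genes (23.4% in MCC and 25.1% in iMac), where 29.6% and 32.4% were lower. Rac2, the Rac of blood cells, had 2 counts over the MEF libraries, 338 and 337 CPM in MCC and 492 and 444 in iMac. In iMac it was 17726-fold higher than in MEF (95% counting interval 4907 to 146376). Rhoh, also of blood cells, had no counts in MEF and 1.87 and 1.69 CPM in MCC. Rhou fell from 43.5 and 39.8 CPM in MEF to 0.448 and 0.151 in iMac (-4.18 ± 0.82 and -7.10 ± 0.98), and Rnd3, an atypical small GTPase, from 216 and 134 to 4.42 and 3.74 (-4.17 ± 0.37 and -5.42 ± 0.39). Cdc42 was at 590.3 and 516 CPM in MEF and 706 and 657 in iMac and was not called (adjusted p = 0.161 in MCC and 0.0713 in iMac).

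Of 28 further genes of immunoreceptor signalling 16 were higher and 6 lower in MCC, and 15 and 6 in iMac. The share lower was no larger than among all genes (29.6% in MCC and 32.4% in iMac), where 23.4% and 25.1% were higher. Tyrobp and Fcer1g, the short membrane adaptors that carry activation motifs for many myeloid receptors, both rose: Tyrobp from 0.163 and 0.0773 CPM in MEF to 709 and 741 in iMac, and Fcer1g from 0.0813 and 0.206 to 383 and 366. Their log2 fold changes in iMac were 12.53 ± 0.31 and 11.30 ± 0.35. Pik3r6, a regulatory subunit that pairs with Pik3cg as Pik3r5 does, had 0.0542 and 0.0773 CPM in MEF and 31.4 and 31.3 in iMac. Samsn1, a relative of Sash3, had 1 count in MEF and 17.0 and 15.2 CPM in iMac. Pik3r2 was not called in either comparison, at 119 and 103 CPM in MEF and 96.1 and 94.1 in iMac (adjusted p = 0.0762 and 0.113).

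Lymphoid counterparts of the members stayed at or under 2.14 CPM in all libraries. Of 8 listed (Lat, Skap1, Lck, Zap70, Txk, Bank1, Blk, Clnk) 3 passed the filter. Lat, the T cell relative of Lat2, went from 0.271 and 0.283 CPM in MEF to 1.52 and 1.78 in iMac and was higher in both comparisons (2.19 ± 0.34 and 2.56 ± 0.34). Bank1, a B cell scaffold related to Pik3ap1, had 3 counts over MEF, 1.87 and 0.642 CPM in MCC and 0.358 and 0.784 in iMac. Its adjusted p of 0.0114 in MCC was 0.0612 or 0.0553 without the first or second MEF library. In iMac its adjusted p of 0.0232 lay between 0.050003 and 0.104 without any 1 of the MEF or iMac libraries. Lck was at 0.651 and 1.60 CPM in MEF and 1.64 and 2.14 in iMac (adjusted p = 0.243). The other 5 were at most at 0.949 CPM in any library.

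Of 8 genes that link talin and Rap1 to integrins 4 were higher and 2 lower in both comparisons. The share lower was no larger than among all genes (29.6% in MCC and 32.4% in iMac), where 23.4% and 25.1% were higher. Rassf5, the RAPL effector of Rap1, rose by 2.16 ± 0.37 and 2.09 ± 0.37 on the log2 scale, and Sipa1, a Rap1 GAP, by 2.25 ± 0.16 and 2.34 ± 0.16. Rap1a rose by 0.90 ± 0.09 and 1.18 ± 0.10. Vcl, vinculin, which strengthens focal adhesions, fell from 868 and 435 CPM in MEF to 99.2 and 36.0 in MCC and 41.4 and 38.2 in iMac, and shares 25.5% of its exonic bases with Ap3m1. Tln2 was at 125 and 76.0 CPM in MEF and 12.5 and 17.7 in iMac, with an adjusted p of 0.00862 that became 0.0655 without iMac library 1 and 0.0506 without iMac library 2. Tln1, the main talin of both cell types, was not called (adjusted p = 0.431 and 0.974), with 1136 and 738 CPM in MEF and 944 and 917 in iMac.

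**Figure D5:**
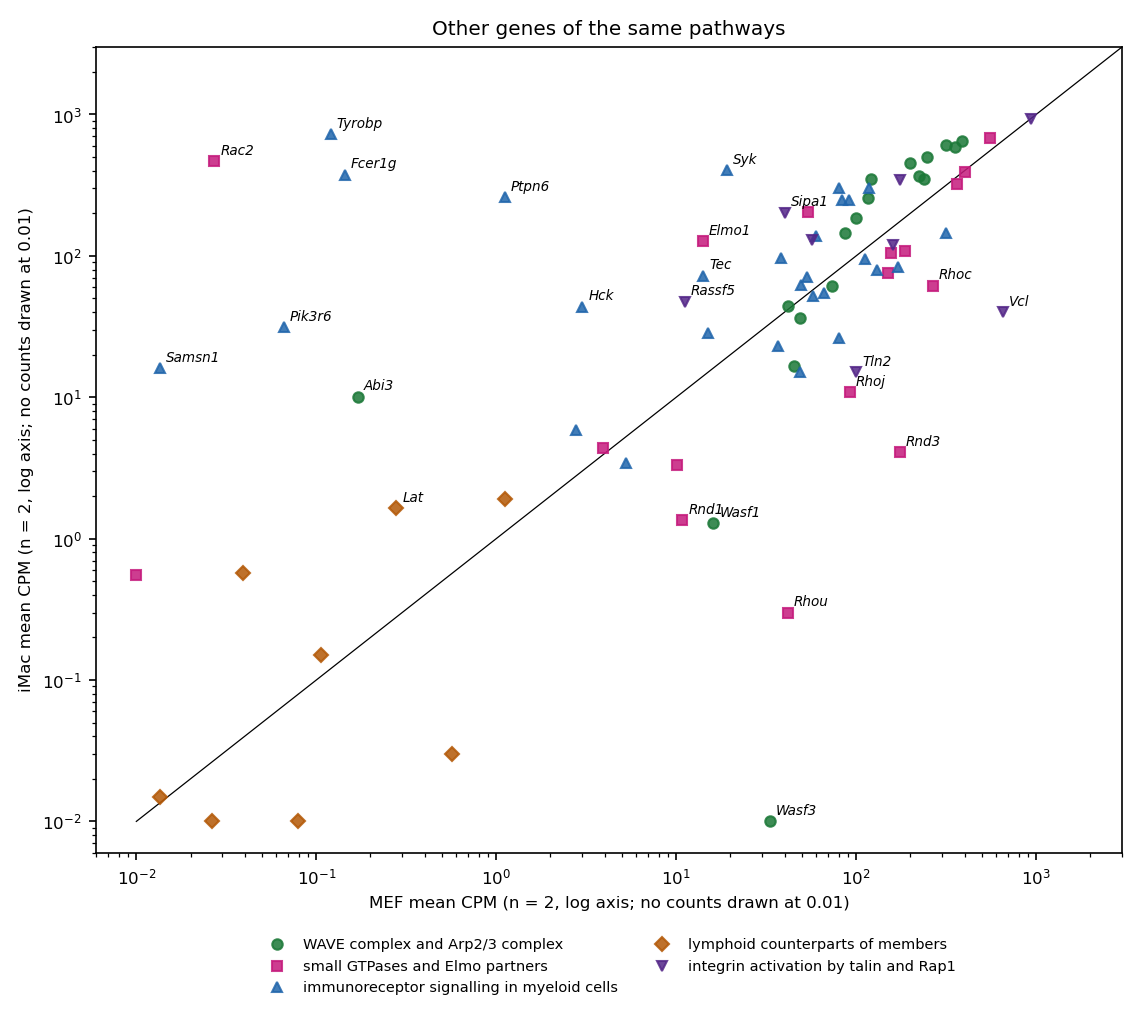
Mean CPM in iMac against mean CPM in MEF (n = 2 libraries each, log axes) for 79 further genes of the same pathways, marked by group, with the diagonal of equal levels. Rac2, Tyrobp, Fcer1g and Ptpn6 lie far above the diagonal, Wasf3, Rhou and Rnd3 far below, and the lymphoid counterparts (brown) lie under 3 CPM on both axes.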

How the data were processed

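RNA-seq counts per gene in 6 libraries were used as deposited. The authors aligned reads to mm10 with STAR and made whole-number counts with featureCounts, per the submitters' processing notes, and libraries came from total RNA with an mRNA-seq kit, per the labels' protocols. The sources used here state no versions, annotation or strand setting. In R 4.3.3, edgeR 4.0.16 filtered low counts with filterByExpr (18613 of 30445 genes were kept), scaled by TMM and fitted a quasi-likelihood model of group to all 6 libraries (3 residual degrees of freedom). P-values were two-sided and adjusted by Benjamini-Hochberg over the genes tested, with calls at 0.05, and ± after a log2 fold change is its SE. The procedure was tested on simulated data. Totals of 34389817 to 39174367 counts put 1 count at about 0.03 CPM, and ratios with 1 to 3 counts in a group carry a 95% Poisson interval for counting error only. Levels per kb use merged exons of GENCODE M21 on mm10. Alternatives were DESeq2 1.42.0, limma-voom (limma 3.58.1), size factors by the median of ratios, no filter, at least 5 CPM in 2 libraries, only the groups compared, a replicate block, each library left out in turn and, for shares, the longest transcript.

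The members, their relatives and all lists were chosen with earlier results of these data known. Some genes of these lists are not reported here. Full values were given by rule for the 3 members of each role with the highest mean CPM in iMac and for members without a call. Relatives lower by at least 2-fold in both comparisons with MEF, or higher, were named, as were up to 4 called genes with the largest fold change and the highest uncalled gene of each pathway list.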

Additional observations from a re-analysis of the deposited data

How the results depend on the processing

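All 45 tested members kept a higher call against MEF under each of the 13 alternatives, in MCC and in iMac, with 45 to 46 called in MCC and 45 in iMac on leaving out each library and 0 lower. Of the 45, 27 were under 1 CPM in MEF, and those near 0 there could pass the filter only through the groups where they were high. That these kept their calls in fits to the same libraries is a description. None of the members, relatives or pathway genes called against MEF changed direction. The median of all genes, near 0, did: at 5 CPM in 2 libraries it was 0.05 in MCC and 0.04 in iMac, and in MCC it was 0.04 with only the groups compared and 0.03 without MEF library 2. The median difference of the relatives between iMac and MCC went from -0.06 to between -0.26 and 0.07 on leaving out each library, and that of the pathway genes from 0.09 to between -0.05 and 0.11. Fold changes of members moved: leaving out a MEF library changed 13 to 16 of the 45 by over 1.5 times, by up to 4.05 on the log2 scale. That largest move was in Sash3, which had no counts in the remaining MEF library. The alternative limma-voom changed 4 (Cd52, Cd48, Dock2, Rasal3), by up to -2.03 (Cd52 in MCC). Median-ratio size factors moved the median of all genes from -0.05 to -0.12 in MCC and from -0.06 to -0.12 in iMac. Over all genes, those called between iMac and MCC in either direction were 4 of 18613 as reported. They were 2734 of 18613 by DESeq2 and 146 of 18613 by limma-voom. Without the filter they were 89 of 30445, and with only those groups fitted 1364 of 15859. Counts that follow for a library left out rest on a group of 1 library. They have no share of all genes beside them and are a description only. Between iMac and MCC, the number of members higher in iMac, 0 as reported, was 16 by DESeq2, 10 with only those groups fitted and 0 to 1 on leaving out each library, and 0 were lower. The relatives higher there were 7 by DESeq2, 4 with only the groups compared and 0 on leaving out each library. The relatives lower there were 10 by DESeq2, 1 without the filter, 2 with only the groups compared and 0 to 8 on leaving out each library. Pathway genes higher there were 10 by DESeq2, 1 by limma-voom, 9 with only the groups compared and 0 on leaving out each library, and those lower were 6, 0, 3 and 0 to 3. In MCC against MEF the relatives higher, 8 as reported, were 5 with median-ratio size factors and 5 with only the groups compared, and 4 to 7 on leaving out each library, while 21 to 24 were lower. In iMac the relatives higher ran from 4 to 10 and those lower from 16 to 27. Pathway genes lower in MCC, 21 as reported, were 12 with only the groups compared and 13 to 20 on leaving out each library, with 33 to 38 higher. In iMac 10 to 24 were lower and 31 to 40 higher. The median share of the leukocyte gene in iMac was 85.7% with the longest transcript against 85.2% with merged exons. Where a group was left with 1 library, that library was assumed to vary like the others. The causes of these differences were not tested.

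The labels number the libraries of each group 1 and 2. The correlation of the differences between libraries 1 and 2 over 18613 genes was 0.189 for MEF with MCC, 0.0105 for MEF with iMac and 0.0286 for MCC with iMac, so the numbers were not taken to pair the libraries. With the number as a replicate block, 45 members were higher in MCC and 45 in iMac against MEF, 0 differed between iMac and MCC, and 5 relatives in place of 8 were higher in MCC.

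With 2 libraries a group, small changes can be missed, and the labels do not say whether libraries were separate cultures. Members with 0 to 3 counts in MEF have only a bound or a wide interval. Reads in exons shared by neighbouring genes cannot be assigned without strand.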
